A study of Homo sapiens with 24 samples.

Results

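The genes described here are 10 genes of megakaryocytes and platelets, chosen by name: GP6, PLEK, GP1BA, GP1BB, GP9, ITGA2B, ITGB3, PF4, THBS1 and CD9. They were followed through 8 guide RNA groups in a count table of 21925 gene entries. Of the 10 genes, 9 have a row in that table, and GP1BB is not analysed here. Of the 9, GP9 and PF4 stayed under the filter on low counts, and the other 7 were tested among 13147 genes. The genes that rose when GATA1 was repressed are described apart from those that fell and from those that passed no test.

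RNA was sequenced from K562 cells, a human erythroleukaemia line, which expressed catalytically inactive Cas9 joined to a KRAB repression domain under a promoter switched on by doxycycline. This system, CRISPR interference (CRISPRi), represses the site that a single guide RNA (sgRNA) points to. All 24 libraries came from such cells after 24 hours of doxycycline, each from 10000 lysed cells, and each sgRNA had 3 biological replicates. The sgRNAs GATA1TSS-Guide1 and GATA1TSS-Guide2 were aimed at the transcription start site of GATA1 (6 libraries). The sgRNAs eHDAC6-Guide1 and eHDAC6-Guide2 were aimed at eHDAC6, a putative enhancer of GATA1 (6 libraries). The controls were 4 non-targeting sgRNAs, NC-Guide1 to NC-Guide4 (12 libraries), which share the Cas9 fusion and the doxycycline. Each targeted element was thus reached with 2 sgRNAs in 1 cell line. Where their target sites lie is not given in the sources used here.

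Megakaryocytes are bone marrow cells that grow large and polyploid and shed platelets. A platelet at a wound is caught by von Willebrand factor through the GPIb-IX-V complex, is activated by collagen through GPVI, and binds fibrinogen through the integrin αIIbβ3. GATA1, a zinc finger transcription factor encoded on the X chromosome, drives many genes of erythroid cells and megakaryocytes and also represses genes of earlier progenitors and of other blood lineages. K562 cells resemble early precursors of the erythroid and megakaryocyte lineages.

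Libraries held 4290343 to 23205811 counts, the fewest in GATA1TSS-Guide2 replicate 2, where low genes are measured least precisely. Levels are CPM, the counts of a gene brought to a common library total after TMM scaling, and the SD is that between libraries. GATA1, the targeted gene, averaged 84.8 ± 37.1 CPM with GATA1TSS sgRNAs (SD, n = 6), 254 ± 8.72 CPM with eHDAC6 sgRNAs (SD, n = 6) and 363 ± 28.9 CPM in NC libraries (SD, n = 12). Within the GATA1TSS group, Guide2 left it at 53.1 ± 9.67 CPM and Guide1 at 117 ± 18.0 CPM (SD, n = 3 each). The NC libraries are not uniform: earlier results of these data put replicates 2 and 3 of NC-Guide3 and NC-Guide4 apart from the other 8. Changes against these 4 libraries alone are therefore given beside changes of an element that lose their call or shrink with them.

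As a check of the label, the levels of the 9 genes were compared per length in the 12 NC libraries, as CPM per kb of exon. ITGA2B, the αIIb chain of the fibrinogen receptor, stood at 10.5 ± 2.53 CPM per kb and GP6, which encodes the collagen receptor GPVI, at 7.72 ± 1.70, and these neighbours lie within their SDs. CD9, a tetraspanin of the platelet surface, followed at 4.05 ± 0.693 CPM per kb, ITGB3, the β3 chain, at 1.53 ± 0.247, and GP1BA, the chain of GPIb that binds von Willebrand factor, at 0.748 ± 0.179 (SD, n = 12 each). PLEK, which encodes the protein kinase C substrate pleckstrin, stood at 0.210 ± 0.109 CPM per kb and THBS1, the granule adhesion protein thrombospondin-1, at 0.0871 ± 0.0563, again within their SDs. GP9 and PF4 were near 0. The K562 cells thus held transcripts of the fibrinogen and collagen receptors of platelets, while 2 defining platelet genes were not measurable above the limit that a count of 0 allows.

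GP6 and PLEK rose with the sgRNAs of both elements, ITGB3 fell with both, and CD9 fell with GATA1TSS sgRNAs. ITGA2B, GP1BA and THBS1 passed the test with neither. With GATA1TSS sgRNAs against NC, 4 of the 7 tested genes were called at an adjusted p under 0.05 (edgeR, all genes tested), 2 higher and 2 lower, where 27.2% of all genes tested were called, 13.5% higher and 13.7% lower. With eHDAC6 sgRNAs against NC, 3 of 7 were called, 2 higher and 1 lower, where 31.1% of all genes tested were called, 15.8% higher and 15.3% lower. The median log2 change of the 7 was -0.09 with GATA1TSS and 0.19 with eHDAC6 sgRNAs, beside medians of all genes tested of -0.00 and -0.01. Both comparisons share the NC libraries. In bulk RNA, fewer cells that express a gene and less of its RNA per cell cannot be told apart.

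GP6 (chr19:55525075-55549632, minus strand, hg19) encodes GPVI, which signals after binding collagen. It stood at 28.4, 37.5 and 29.3 CPM with GATA1TSS-Guide1 and at 36.3, 31.9 and 41.1 CPM with GATA1TSS-Guide2. With eHDAC6-Guide1 it stood at 27.0, 24.7 and 22.2 CPM and with eHDAC6-Guide2 at 19.7, 22.2 and 24.5 CPM. The 12 NC libraries ran from 11.9 to 23.4 CPM with a median of 17.1. Every GATA1TSS library lay above every NC library, a separation that 0.791% of all genes tested showed in this direction, whereas the eHDAC6 and NC libraries overlapped. The mean with GATA1TSS sgRNAs was 34.1 ± 5.04 CPM (SD, n = 6), 195% of the NC mean of 17.5 ± 3.86 CPM (SD, n = 12), a log2 change of 0.99 (SE 0.08, adjusted p = 8.28e-10). With eHDAC6 sgRNAs the mean was 23.4 ± 2.54 CPM (SD, n = 6), 134% of the NC mean, a log2 change of 0.44 (SE 0.08, adjusted p = 1.72e-04). Both sgRNAs of each element gave a call by themselves, with log2 changes of 0.89 and 1.10 for GATA1TSS-Guide1 and GATA1TSS-Guide2 and of 0.52 and 0.37 for eHDAC6-Guide1 and eHDAC6-Guide2.

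The GP6 level also differed among the control sgRNAs, at 12.7 ± 1.33 CPM with NC-Guide1, 16.2 ± 1.24 with NC-Guide2, 18.7 ± 1.90 with NC-Guide3 and 22.4 ± 0.923 with NC-Guide4 (SD, n = 3 each; adjusted p = 0.00694 for any difference among the 4). ITGA2B was the other of 2 tested platelet genes called among the NC sgRNAs, where 12.3% of all genes tested were called. NC-Guide4 thus lay at the level of eHDAC6-Guide2, 22.2 ± 2.38 CPM (SD, n = 3). Set against the 4 NC libraries that stand apart, at 20.5 ± 3.00 CPM (SD, n = 4), GP6 rose with GATA1TSS sgRNAs (log2 change 0.75, adjusted p = 3.02e-05), while with eHDAC6 sgRNAs the log2 change was 0.19 and the adjusted p 0.394. When counts were summed per sgRNA, so that the spread is that between sgRNAs, the eHDAC6 change of 0.42 was not called either. Only 280 of 14452 genes were called in that fit.

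PLEK (chr2:68592322-68624585, plus strand, hg19) encodes pleckstrin, the main substrate of protein kinase C in activated platelets, also present in leukocytes. With GATA1TSS-Guide2 it stood at 7.22, 8.42 and 7.17 CPM, and with GATA1TSS-Guide1 at 1.80, 0.504 and 0.725 CPM. With eHDAC6-Guide1 it stood at 0.894, 2.13 and 0.986 CPM and with eHDAC6-Guide2 at 1.51, 1.89 and 1.81 CPM. The 12 NC libraries ran from 0.222 to 1.27 CPM with a median of 0.605. The 3 GATA1TSS-Guide2 libraries lay far above all others, while those of GATA1TSS-Guide1 fell among or just above the NC range and 4 of the 6 eHDAC6 libraries lay above it. The counts behind these levels are small, 423 in the GATA1TSS libraries together, 117 in the eHDAC6 libraries and 95 in the NC libraries. PLEK passed the filter through the groups where it is high: 4 of 6 GATA1TSS, 6 of 6 eHDAC6 and 3 of 12 NC libraries reached its level of 0.742 CPM.

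The log2 change of PLEK was 2.17 with GATA1TSS sgRNAs (SE 0.28, adjusted p = 1.86e-06) and 1.29 with eHDAC6 sgRNAs (SE 0.30, adjusted p = 0.00227). GATA1TSS-Guide2 exceeded GATA1TSS-Guide1 by 2.87 on the log2 scale (SE 0.40, adjusted p = 8.61e-05), and PLEK was the 1 platelet gene of 7 called between these sgRNAs, where 3.48% of all genes tested were called. By itself GATA1TSS-Guide2 gave a log2 change of 3.61 (adjusted p = 1.35e-09) against NC and GATA1TSS-Guide1 one of 0.73 (adjusted p = 0.202). The rise in the GATA1TSS group therefore rests on Guide2, and without that sgRNA the log2 change was 0.74 and not called. Among the eHDAC6 sgRNAs, Guide2 gave 1.50 (adjusted p = 0.00627) and Guide1 1.08 (adjusted p = 0.0563), and no platelet gene of 7 was called between them, where 0.0152% of all genes tested were called. The eHDAC6 change of PLEK lost its call without eHDAC6-Guide2, where 1993 of 13124 genes were called, and with counts summed per sgRNA, where 280 of 14452 were. Against the 4 NC libraries, at 0.338 ± 0.102 CPM (SD, n = 4), the log2 changes of PLEK were 3.00 for GATA1TSS and 2.12 for eHDAC6 (adjusted p = 0.00704). Those 4 libraries held 19 PLEK counts together and at most 0.450 CPM, under the filter level of 0.742 CPM. PLEK thus passed the filter there only through libraries with targeting sgRNAs, and these calls are not separate support for the rise.

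**Figure D1:**
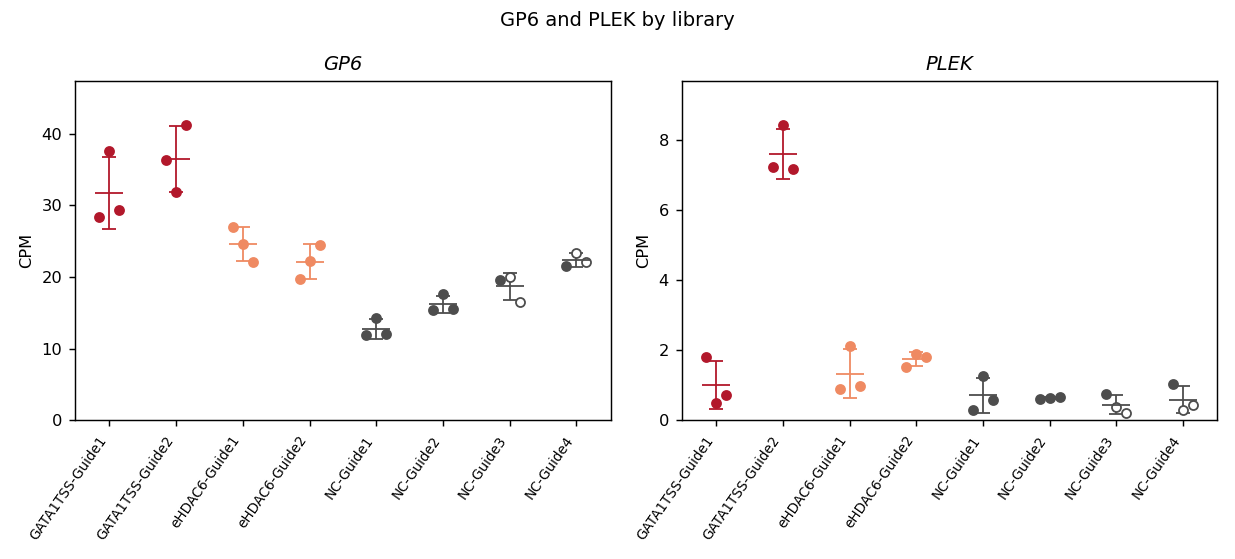
Level of GP6 and PLEK in each of 24 libraries, in CPM, by sgRNA, where points are libraries, bars are the mean ± SD of 3 libraries and open points are the 4 NC libraries that stand apart. All 6 GATA1TSS libraries lie above all NC libraries for GP6, and the PLEK level is above 7 CPM in the 3 GATA1TSS-Guide2 libraries.

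The order of the levels per length changed with these genes. With GATA1TSS sgRNAs GP6 stood at 15.04 ± 2.22 CPM per kb, above ITGA2B at 9.64 CPM per kb, whereas in NC libraries ITGA2B was the higher in the mean. With GATA1TSS-Guide2 PLEK reached 2.67 CPM per kb, next to CD9 at 2.85 and above ITGB3 at 1.11 CPM per kb.

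Between the elements, GP6 was lower with eHDAC6 than with GATA1TSS sgRNAs by 0.55 on the log2 scale (-0.55, SE 0.09, adjusted p = 9.81e-04), and every eHDAC6 library lay below every GATA1TSS library, as for 0.639% of all genes tested in this direction. It was the 1 platelet gene of 7 called in this comparison, where 1.53% of all genes tested were called. NC libraries enter it only through the filter, the scaling and the dispersion estimate. With the 12 libraries of the 2 elements alone, where 670 of 12871 genes were called, the difference was -0.56 (adjusted p = 7.37e-04). The call was lost without GATA1TSS-Guide2 (-0.44), where 4 of 13047 genes were called, and without eHDAC6-Guide2 (-0.47), where 45 of 13124 were. It was also lost with 1 coefficient per element (15 of 12749 called) and with counts summed per sgRNA (0 of 14452). Few genes of any kind were called in these fits, beside 201 of 13147 in the main fit. The same difference for PLEK was -0.88 (adjusted p = 0.146). It became -2.31 and passed the test without GATA1TSS-Guide1, where 915 of 13109 genes were called, and turned to 0.56 without GATA1TSS-Guide2.

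Stretches of 250 bases before the annotated start of GP6, PLEK and ITGA2B are shown because they place the 2 genes that rose beside the most abundant fibrinogen receptor gene, which passed no test. They are RefSeq sequence of GRCh38.p14, 5′ to 3′ on the strand of the gene, with a GATA word in capitals where there is one. GATA words, the letters GATA1 and its relatives prefer, were searched on both strands as AGATAA, its variant AGATAG, the word TGATAA and its variant TGATAG, and 22.3% of 35116 windows of this length hold at least 1. ETS words, the core of sites bound by factors such as FLI1, were CGGAAG and the variant AGGAAG on both strands, and 40.8% of the windows hold at least 1. No GATA word overlaps an ETS word in the 3 stretches.
GP6, chr19:55038265-55038514, minus strand: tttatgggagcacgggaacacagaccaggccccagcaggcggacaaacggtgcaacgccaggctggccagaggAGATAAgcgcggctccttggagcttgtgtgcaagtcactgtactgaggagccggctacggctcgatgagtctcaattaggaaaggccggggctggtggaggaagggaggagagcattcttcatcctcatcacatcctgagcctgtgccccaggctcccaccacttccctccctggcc
PLEK, chr2:68365032-68365281, plus strand: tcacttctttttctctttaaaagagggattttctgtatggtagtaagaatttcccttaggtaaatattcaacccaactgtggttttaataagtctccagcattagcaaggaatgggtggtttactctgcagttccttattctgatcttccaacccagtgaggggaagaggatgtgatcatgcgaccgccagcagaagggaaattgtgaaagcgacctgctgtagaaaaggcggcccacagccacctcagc
ITGA2B, chr17:44389650-44389899, minus strand: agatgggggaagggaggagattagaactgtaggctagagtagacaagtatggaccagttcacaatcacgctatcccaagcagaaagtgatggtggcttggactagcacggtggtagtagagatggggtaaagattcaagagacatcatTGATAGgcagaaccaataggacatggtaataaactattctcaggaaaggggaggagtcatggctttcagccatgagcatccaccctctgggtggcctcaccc
GP6 holds AGATAA with its first base at -177 from the start and AGGAAG at -79, ITGA2B holds TGATAG at -102 and no ETS word, and PLEK holds neither word in this window. A match is a description of letters and not evidence of a bound site. Of the 10 genes, 7 had such a window in the RefSeq table.

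ITGB3 (chr17:45331208-45390077, plus strand, hg19), the β3 chain shared by the fibrinogen and vitronectin receptors, fell with both elements. With GATA1TSS-Guide1 it stood at 5.49, 6.65 and 5.80 CPM and with GATA1TSS-Guide2 at 6.09, 5.01 and 5.23 CPM. With eHDAC6-Guide1 it stood at 6.002, 6.03 and 6.37 CPM and with eHDAC6-Guide2 at 5.75, 4.65 and 5.90 CPM. The 12 NC libraries ran from 5.91 to 10.3 CPM with a median of 7.20. All 6 libraries of each element lay below the NC mean, and 4 GATA1TSS and 3 eHDAC6 libraries lay below every NC library, with the rest in the lower part of the NC range. The log2 change was -0.37 with GATA1TSS (SE 0.10, adjusted p = 0.00803) and -0.36 with eHDAC6 sgRNAs (SE 0.10, adjusted p = 0.00996), and the means of 5.71 ± 0.602 and 5.78 ± 0.592 CPM were 76.2% and 77.2% of the NC mean of 7.49 ± 1.21 CPM. By single sgRNA the fall was called with GATA1TSS-Guide2 (-0.42, adjusted p = 0.0240) and eHDAC6-Guide2 (-0.45, adjusted p = 0.0235), while Guide1 gave -0.31 and -0.28 with no call. Both changes were -0.22 and not called against the 4 NC libraries, at 6.75 ± 0.803 CPM (SD, n = 4), and both calls were lost with counts summed per sgRNA and without Guide2 of the element. With summed counts 632 (GATA1TSS) and 280 (eHDAC6) of 14452 genes were called. Without Guide2 of the element 1625 of 13047 and 1993 of 13124 were.

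CD9 (chr12:6309482-6347437, plus strand, hg19), a tetraspanin on platelets and many other cells, ran from 3.19 to 4.56 CPM with GATA1TSS sgRNAs (median 3.98), from 2.62 to 5.75 CPM with eHDAC6 sgRNAs (median 4.42) and from 3.97 to 7.20 CPM in NC libraries (median 5.28). All 6 GATA1TSS libraries and 5 of 6 eHDAC6 libraries lay below the NC mean, but the groups overlapped. The fall with GATA1TSS sgRNAs (log2 change -0.40, SE 0.14, adjusted p = 0.0347) is close to the threshold and was lost in 8 of 24 fits that left out 1 library. With eHDAC6 sgRNAs the log2 change was -0.32 (SE 0.14, adjusted p = 0.0946). Against the 4 NC libraries the GATA1TSS change was -0.42 and not called (adjusted p = 0.171), at nearly the same size.

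ITGA2B (chr17:42449550-42466873, minus strand, hg19), the partner of ITGB3 and a marker of the megakaryocyte lineage, ran from 28.2 to 37.7 CPM with GATA1TSS sgRNAs (median 31.9), from 30.7 to 41.4 CPM with eHDAC6 sgRNAs (median 37.0) and from 22.1 to 52.4 CPM in NC libraries (median 33.8). The NC range enclosed both other groups. Its log2 change was -0.09 with GATA1TSS (SE 0.09, adjusted p = 0.513) and 0.09 with eHDAC6 sgRNAs (SE 0.09, adjusted p = 0.472). The NC sgRNAs differed from each other (adjusted p = 0.0197), with NC-Guide1 at 46.1 ± 5.59 CPM and the other 3 at 29.3 to 32.4 CPM in the mean. Without NC-Guide1 the GATA1TSS change turned to 0.05, and no platelet gene was then called among the remaining NC sgRNAs.

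GP1BA (chr17:4835570-4838325, plus strand, hg19) ran from 0.906 to 2.18 CPM with GATA1TSS sgRNAs (median 1.60), from 1.38 to 3.02 CPM with eHDAC6 sgRNAs (median 2.28) and from 1.17 to 2.81 CPM in NC libraries (median 1.81). The 3 groups overlapped. Its log2 change was -0.21 with GATA1TSS (SE 0.21, adjusted p = 0.503) and 0.23 with eHDAC6 sgRNAs (SE 0.21, adjusted p = 0.425), and the first turned to 0.03 against the 4 NC libraries.

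**Figure D2:**
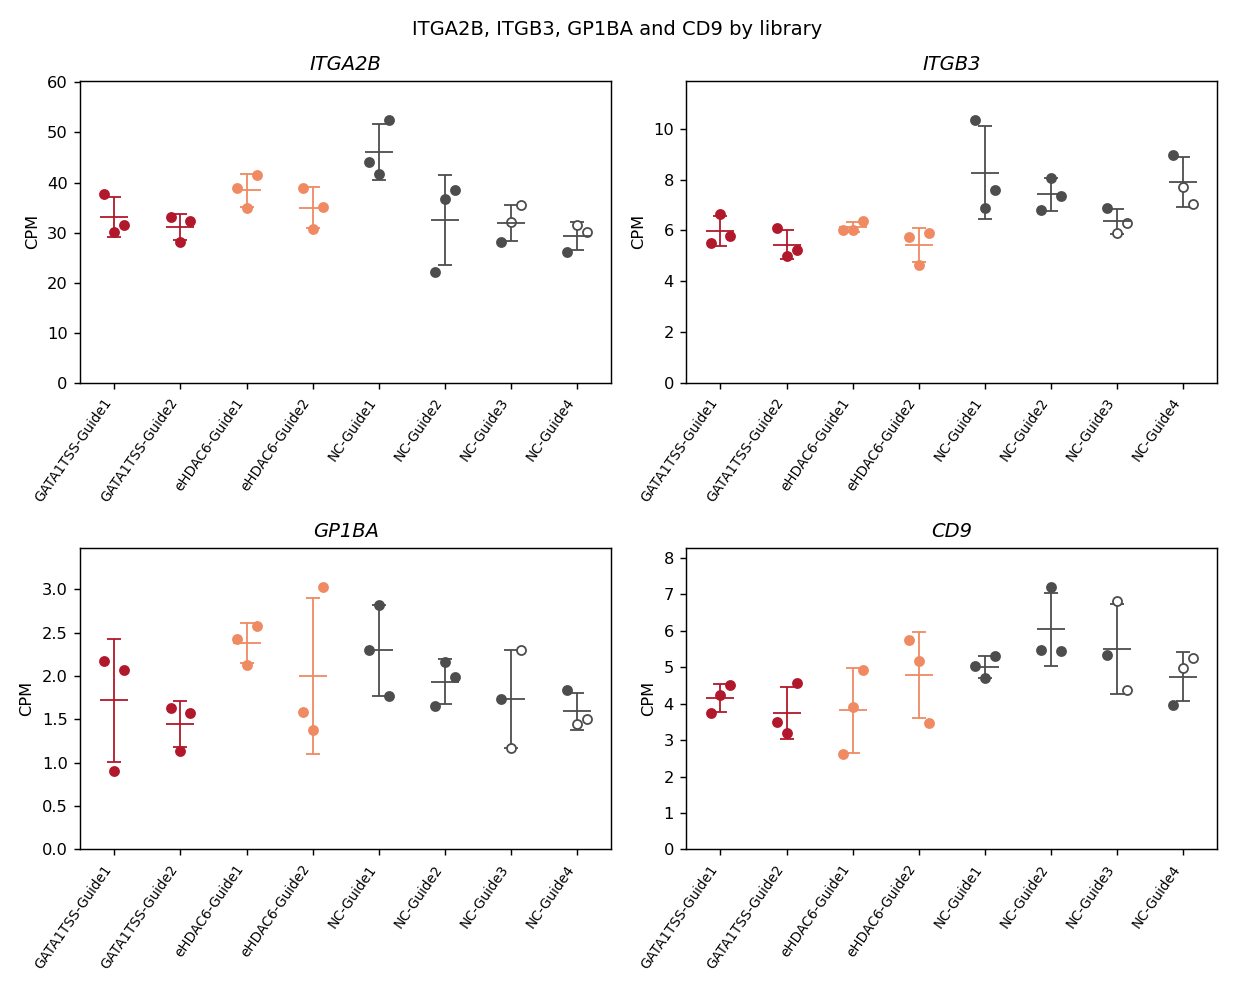
Level of ITGA2B, ITGB3, GP1BA and CD9 in each of 24 libraries, in CPM, by sgRNA, with the mean ± SD of 3 libraries and open points for the 4 NC libraries that stand apart. ITGB3 lies below the NC mean of 7.49 CPM in all 12 libraries with a targeting sgRNA, while the groups overlap for all 4 genes.

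THBS1 (chr15:39873280-39891121, plus strand, hg19), a granule protein that platelets release, ran from 0.362 to 1.84 CPM with GATA1TSS sgRNAs (median 0.696), from 0.379 to 1.06 CPM with eHDAC6 sgRNAs (median 0.699) and from 0.148 to 1.49 CPM in NC libraries (median 0.465). These levels rest on 100, 55 and 97 counts and the groups overlapped. Its log2 change was 0.54 with GATA1TSS (SE 0.35, adjusted p = 0.269) and 0.19 with eHDAC6 sgRNAs (SE 0.38, adjusted p = 0.747). The 4 NC libraries averaged 0.339 ± 0.139 CPM (SD, n = 4) and the other 8 NC libraries 0.777 ± 0.425 CPM (SD, n = 8). Against the 4 alone the changes were 1.41 for GATA1TSS (adjusted p = 0.0593) and 1.06 for eHDAC6, and that of GATA1TSS-Guide2 passed the test (1.73, adjusted p = 0.0227). The 4 held 19 THBS1 counts together and at most 0.450 CPM, under the filter level of 0.742 CPM. THBS1 thus passed the filter there only through libraries with targeting sgRNAs, and this call is not support for a rise.

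GP9 (chr3:128779610-128781254, plus strand, hg19), the GPIX chain of the GPIb-IX-V complex, had at most 2 counts in any library and counts in 3 of 6 GATA1TSS, 2 of 6 eHDAC6 and 3 of 12 NC libraries. PF4 (chr4:74846542-74847841, minus strand, hg19), platelet factor 4, a chemokine of the alpha granules, had no count in any GATA1TSS or eHDAC6 library and 1 count in each of 2 NC libraries. PF4 has a close copy, PF4V1, which had a total count of 0 over the 24 libraries, so no counts of PF4 went to it. Whether reads that match PF4 and PF4V1 alike were left uncounted was not tested. The limit that a count of 0 allows, 3 counts, was 0.125 to 0.683 CPM by library. GP9 and PF4 thus lay below what this depth can measure in all groups.

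**Figure D3:**
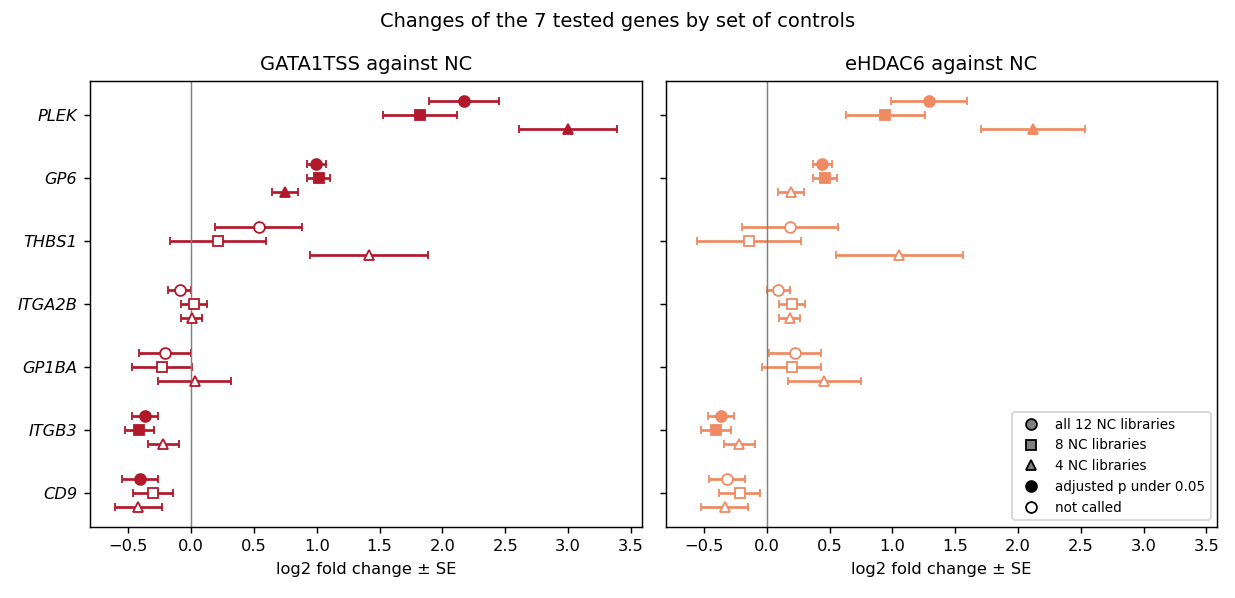
Log2 fold change ± SE of the 7 tested platelet genes with GATA1TSS (left) and eHDAC6 sgRNAs (right) against all 12 NC libraries, the 8 and the 4, with filled symbols for an adjusted p under 0.05. PLEK and GP6 lie to the right with GATA1TSS sgRNAs against every set of controls, and the eHDAC6 change of GP6 is 0.19 against the 4 and 0.44 against all 12.

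Against the 4 NC libraries alone, 2 of 7 genes were called with GATA1TSS sgRNAs (GP6 and PLEK), where 10.2% of all genes tested were called. With eHDAC6 sgRNAs 1 of 7 was called (PLEK), where 1.49% were. PLEK passed the filter in this fit only through libraries with targeting sgRNAs. Against the 8 other NC libraries 3 of 7 were called with each element (GP6, PLEK and ITGB3), where 33.1% and 37.1% were. The counts by single sgRNA against all NC libraries were 1 of 7 for GATA1TSS-Guide1 (12% of all genes tested), 3 of 7 for GATA1TSS-Guide2 (24.8%), 1 of 7 for eHDAC6-Guide1 (16.7%) and 3 of 7 for eHDAC6-Guide2 (19.2%).

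The genes whose pattern was most like that of a called platelet gene were sought among 9975 genes that averaged 5 CPM or more, by the root mean square difference of log2 CPM over the 8 sgRNA means. Nearest to GP6 were C3AR1 (0.113), a receptor for complement C3a, LIMD2 (0.161) and PIK3CG (0.162), the gamma catalytic subunit of phosphoinositide 3-kinase. Nearest to ITGB3 were ZDHHC21 (0.0606), a palmitoyltransferase, ADGRV1 (0.0734) and ANKH (0.0738). PLEK and CD9 were too low for this search.

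To set these genes among others of the platelet, 8 further lists were counted, with 194 genes listed, 166 in the table and 137 tested. GATA1, the targeted gene, is in the list of transcription factors. It is therefore counted as 1 of the falls with each element, against all 12 and against the 4 NC libraries. With GATA1TSS sgRNAs 42 rose and 25 fell (48.9%, beside 27.2% of all genes tested), and with eHDAC6 sgRNAs 45 rose and 20 fell (47.4%, beside 31.1%). Against the 4 NC libraries 20 rose and 10 fell with GATA1TSS sgRNAs (21.7% of 138 tested, beside 10.2%), and 3 rose and 3 fell with eHDAC6 sgRNAs (4.35%, beside 1.49%). By direction, 13.5% of all genes tested were called higher and 13.7% lower with GATA1TSS, and 15.8% higher and 15.3% lower with eHDAC6 sgRNAs. The count of each list below against all 12 NC libraries is to be read beside these shares. For the counts against the 4 NC libraries, the shares of 10.2% and 1.49% hold both directions together, and shares by direction are not given here. The median log2 change of the 137 was 0.05 with GATA1TSS and 0.06 with eHDAC6 sgRNAs. The counts with eHDAC6 sgRNAs thus depended on the NC libraries they were set against, and a comparison with 4 in place of 12 also has fewer libraries.

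**Figure D4:**
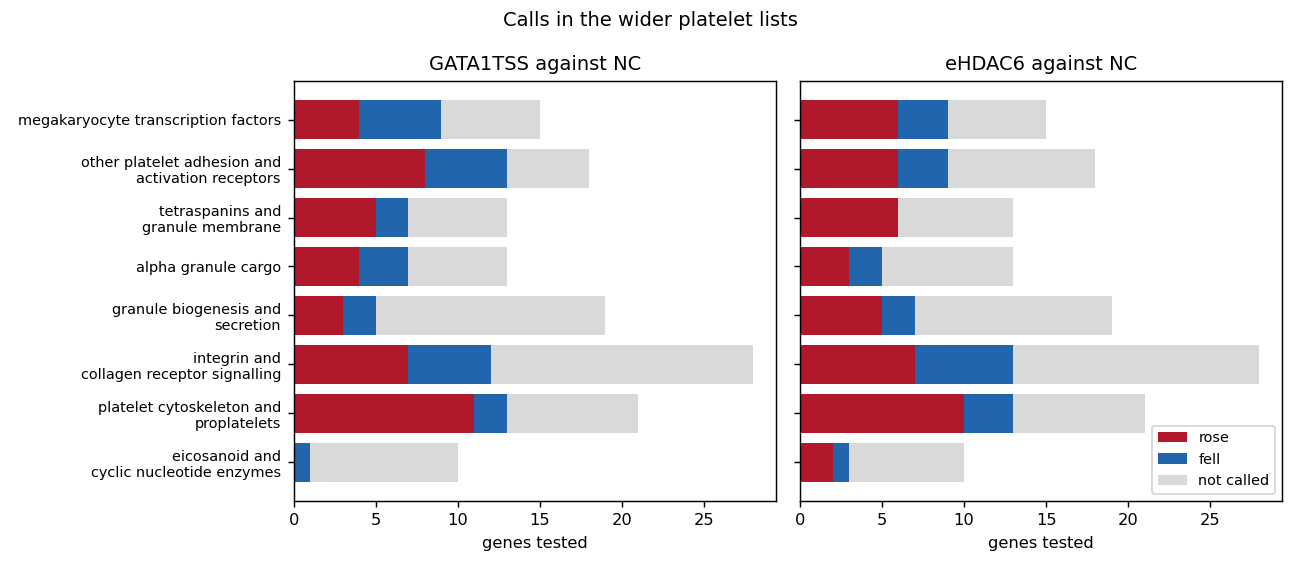
Number of genes tested in each of the 8 further platelet lists that rose, fell or were not called with GATA1TSS (left) and eHDAC6 sgRNAs (right) against all 12 NC libraries. The cytoskeleton list has 11 rises of 21 genes with GATA1TSS and 10 with eHDAC6 sgRNAs. The transcription factor list holds GATA1, the targeted gene.

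Of the cytoskeleton and proplatelet genes, which shape platelets and the extensions that shed them, 11 of 21 rose and 2 fell with GATA1TSS sgRNAs, and 10 rose and 3 fell with eHDAC6 sgRNAs. Against the 4 NC libraries 6 rose and none fell with GATA1TSS sgRNAs and 1 rose and none fell with eHDAC6 sgRNAs. WAS, the actin regulator mutated in Wiskott-Aldrich syndrome, averaged 107 ± 28.9 CPM with GATA1TSS (SD, n = 6), 90.0 ± 5.73 with eHDAC6 (SD, n = 6) and 56.0 ± 11.4 CPM in NC libraries (SD, n = 12), with log2 changes of 0.90 and 0.69. It kept its call against the 4 NC libraries with both elements (0.56 and 0.35). WIPF1, which binds the WAS protein, rose by 0.63 and 0.49, VASP, another actin regulator, by 0.70 and 0.46, and TPM4, a tropomyosin, by 0.78 and 0.45. With the 4 NC libraries as controls these 3 rose with GATA1TSS sgRNAs by 0.33, 0.36 and 0.49, and their eHDAC6 changes of 0.19, 0.11 and 0.16 were not called. TUBB1, the platelet tubulin, is not analysed here.

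Of the 18 other adhesion and activation receptors tested, 8 rose and 5 fell with GATA1TSS sgRNAs, and 6 rose and 3 fell with eHDAC6 sgRNAs. The 4 NC libraries as controls gave 6 rises and 4 falls with GATA1TSS, beside 1 rise and 1 fall with eHDAC6 sgRNAs. PTGIR, the prostacyclin receptor, which restrains platelets, averaged 8.20 ± 3.67 CPM with GATA1TSS and 6.45 ± 1.13 with eHDAC6 (SD, n = 6 each) and 2.85 ± 1.37 CPM in NC libraries (SD, n = 12), with log2 changes of 1.45 and 1.23. TBXA2R, the thromboxane receptor, rose by 0.53 and 0.35. When set against the 4 NC libraries, PTGIR and TBXA2R rose with GATA1TSS sgRNAs by 0.82 and 0.37, while their eHDAC6 changes of 0.59 (adjusted p = 0.0939) and 0.18 (adjusted p = 0.488) were not called. P2RY1, an ADP receptor, fell by 0.54 with GATA1TSS sgRNAs and by 0.73 against the 4 NC libraries, and its change with eHDAC6 sgRNAs was -0.11 (adjusted p = 0.407). CD84, a receptor of the SLAM family, rose by 0.65 with GATA1TSS and by 1.07 with eHDAC6 sgRNAs, and against the 4 NC libraries by 0.48 with eHDAC6 sgRNAs while the GATA1TSS change was 0.06.

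Of 28 genes of integrin and collagen receptor signalling, 7 rose and 5 fell with GATA1TSS sgRNAs, and 7 rose and 6 fell with eHDAC6 sgRNAs. The 4 NC libraries as controls left 5 rises and 1 fall with GATA1TSS and 1 rise and 1 fall with eHDAC6 sgRNAs. VAV1, an exchange factor downstream of GPVI, rose by 0.79 and 0.75 on the log2 scale with GATA1TSS and eHDAC6 sgRNAs, and PIK3CG, a lipid kinase, by 0.75 and 0.53. Set against the 4 NC libraries, the VAV1 changes were 0.26 (adjusted p = 0.0536) and 0.21 (adjusted p = 0.238) with no call, and PIK3CG rose by 0.28 with GATA1TSS sgRNAs while its eHDAC6 change was 0.05 (adjusted p = 0.768). PTPN6, a phosphatase, rose by 0.97 and 1.21, and its calls held against the 4 NC libraries with both elements (0.46 and 0.69). FYB, an adaptor of integrin activation, rose by 0.70 with GATA1TSS and 1.53 with eHDAC6 sgRNAs, but against the 4 NC libraries its changes were -0.41 and 0.43 with no call.

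Among 15 megakaryocyte transcription factors, GATA1 included, 4 rose and 5 fell with GATA1TSS sgRNAs, and 6 rose and 3 fell with eHDAC6 sgRNAs. With the 4 NC libraries as controls 1 rose and 2 fell with GATA1TSS, and none rose and 1 fell with eHDAC6 sgRNAs. GATA1, the targeted gene, is 1 of the falls in each of these counts and the only fall in the last. Its fall is what the sgRNAs were aimed at and is no result about the list. MEIS1, a homeobox factor of progenitors and megakaryocytes, rose by 0.56 and 0.29, ETV6 by 0.49 and 0.41 and GATA2, which GATA1 is known to repress in erythroid cells, by 0.22 and 0.38. LMO2 fell by 0.21 and 0.33 and TAL1, its partner in GATA1 complexes, by 0.29 and 0.16. NFE2, a factor needed for platelet release, fell by 0.23 with GATA1TSS sgRNAs and had a change of -0.03 with eHDAC6 sgRNAs (adjusted p = 0.718). Against the 4 NC libraries MEIS1 (0.38) and NFE2 (-0.22) kept their GATA1TSS calls, and the eHDAC6 change of MEIS1 was 0.11 with no call. The other 4 lost every call there, with changes for GATA1TSS and eHDAC6 of 0.27 and 0.19 for ETV6, -0.11 and 0.05 for GATA2, 0.04 and -0.08 for LMO2 and -0.15 and -0.02 for TAL1, so that GATA2 and LMO2 turned their direction with GATA1TSS sgRNAs. FLI1, RUNX1 and GFI1B are not analysed here.

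The granule lists moved in both directions. Of 13 tetraspanins and granule membrane genes, 5 rose and 2 fell with GATA1TSS sgRNAs and 6 rose and none fell with eHDAC6 sgRNAs, where CD53 rose by 0.60 and 0.64, VAMP8, the main vesicle fusion protein of platelet secretion, by 0.42 and 0.43, CD82 by 0.34 and 0.46, and TSPAN32 fell by 0.42 with GATA1TSS sgRNAs. With the 4 NC libraries as controls 1 of the 13 rose and 1 fell with GATA1TSS and none was called with eHDAC6 sgRNAs. None of these calls was kept there, with changes for GATA1TSS and eHDAC6 of 0.16 and 0.20 for CD53, 0.15 and 0.15 for VAMP8 and 0.21 and 0.33 for CD82, and of -0.19 for TSPAN32 with GATA1TSS sgRNAs. Of 19 genes of granule formation and secretion, 3 were called higher and 2 lower with GATA1TSS sgRNAs, beside 5 higher and 2 lower with eHDAC6 sgRNAs. Of these 19, 1 fell with GATA1TSS sgRNAs against the 4 NC libraries, none rose, and none was called with eHDAC6 sgRNAs. RAB27A, a small GTPase of dense granules, averaged 60.8 ± 4.89 CPM with GATA1TSS and 55.2 ± 5.97 with eHDAC6 (SD, n = 6 each) and 100.2 ± 28.7 CPM in NC libraries (SD, n = 12), log2 changes of -0.70 and -0.83, beside 64.8 ± 6.44 CPM in the 4 NC libraries, against which the changes were -0.10 and -0.23 and neither was called. ABCC4, a transporter of dense granules, fell by 0.50 and 0.43, and HPS5 and RAB32, which help to form these granules, rose by 0.46 and 0.41 with GATA1TSS sgRNAs. When set against the 4 NC libraries, ABCC4 fell by 0.22 with GATA1TSS sgRNAs, and its eHDAC6 change (-0.15) and the GATA1TSS changes of HPS5 (0.16) and RAB32 (0.18) were not called.

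Of 13 genes of alpha granule cargo tested, 4 rose and 3 fell with GATA1TSS sgRNAs, and 3 rose and 2 fell with eHDAC6 sgRNAs. TGFB1 rose by 0.46 and 0.36 and ANGPT1 by 0.25 and 0.25, while VEGFA fell by 0.37 and 0.32 and PROS1, protein S, by 0.20 and 0.28. None of these 4 was called against the 4 NC libraries, where the changes with GATA1TSS and eHDAC6 sgRNAs were 0.22 and 0.12 for TGFB1, 0.13 and 0.14 for ANGPT1, 0.01 and 0.06 for VEGFA and -0.01 and -0.09 for PROS1. Of the 14 cargo genes tested there, 1 rose with GATA1TSS and none was called with eHDAC6 sgRNAs. The cargo genes PPBP and VWF and the granule receptor SELP, like PF4, were under the filter, at means of at most 0.541 CPM in any of the 3 groups. Of 10 eicosanoid and cyclic nucleotide enzymes, 1 fell and none rose with GATA1TSS sgRNAs, and 2 rose and 1 fell with eHDAC6 sgRNAs, and with eHDAC6 sgRNAs TBXAS1, thromboxane synthase, fell by 0.44, PDE5A rose by 0.28 and ADCY3 by 0.17. These 3 changes were -0.14, 0.21 and 0.05 with no call against the 4 NC libraries, where 1 of the 10 fell with GATA1TSS and none was called with eHDAC6 sgRNAs. Exons of PDE5A and ADCY3 overlap a gene on the other strand, so their values are uncertain.

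Markers of other blood cells moved in the same libraries. Of 22 erythroid markers, 16 fell with each element, where 13.7% (GATA1TSS) and 15.3% (eHDAC6) of all genes tested were called lower, and their summed level ran from 8956 to 15300 CPM with GATA1TSS, 9264 to 12960 with eHDAC6 and 10880 to 19720 CPM in NC libraries. With GATA1TSS sgRNAs 2 and with eHDAC6 sgRNAs 0 of them fell against the 4 NC libraries, where 10.2% and 1.49% of all genes tested were called in either direction. Of 8 monocyte and macrophage markers tested, 5 rose and none fell with each element, where 13.5% (GATA1TSS) and 15.8% (eHDAC6) of all genes tested were called higher. With the 4 NC libraries as controls 4 of the 8 rose with GATA1TSS and 2 with eHDAC6 sgRNAs, beside the same 10.2% and 1.49% in either direction. The 14 in the table summed to 318 to 431 CPM with GATA1TSS, 375 to 399 with eHDAC6 and 202 to 331 CPM in NC libraries. CD68, a macrophage lysosomal protein, averaged 104 ± 9.55 CPM with GATA1TSS and 119 ± 3.59 with eHDAC6 (SD, n = 6 each), 63.1 ± 21.1 in all NC libraries (SD, n = 12) and 89.7 ± 1.25 CPM in the 4 (SD, n = 4), which thus stand high among the controls. ITGAX, an integrin chain of myeloid cells, low in NC libraries at 1.01 ± 0.518 CPM (SD, n = 12), rose by 1.83 and 1.09. Against the 4 NC libraries it rose by 1.66 with GATA1TSS sgRNAs, with an uncalled eHDAC6 change of 0.91. Like PLEK, ITGAX was higher with GATA1TSS-Guide2 than with GATA1TSS-Guide1 (log2 difference 2.22). SPI1, TYROBP and CD33 averaged 160.6%, 197% and 133.2% of the NC mean with GATA1TSS sgRNAs. With eHDAC6 sgRNAs they averaged 159.7%, 192.1% and 162%, and in the 4 NC libraries 132.7%, 135.4% and 134.8%. LYZ averaged 109.7% with GATA1TSS and 109% with eHDAC6 sgRNAs. Not every marker of this list was higher with both elements. ITGAM and FCGR3A averaged 79.8% and 54.2% of the NC mean with eHDAC6 sgRNAs, beside 146.5% and 105.7% with GATA1TSS sgRNAs. CD14 was at or below 0.130 CPM in the mean of each of the 3 groups. Fibroblast and endothelial markers summed to 14.4 to 38.0 CPM with GATA1TSS, 10.2 to 18.6 with eHDAC6 and 9.55 to 25.4 CPM in NC libraries, and of 4 tested 1 rose with GATA1TSS and none was called with eHDAC6 sgRNAs. The part of any of these in the changes of the platelet genes was not tested.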

How the data were processed

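The authors deposited raw read counts per gene for the 24 libraries and, in BED form, RefSeq gene models, whose starts and ends (build hg19) gave positions and exon lengths. TopHat2 2.0.8, Bowtie2 2.1.0, SAMtools 0.1.19 and Picard are named in the submitters' processing notes without their roles. How reads were counted, and whether by strand, is not given in the sources used here.

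From the counts, edgeR 4.0.16 in R 4.3.3 was run with TMM scaling (factors 0.951 to 1.03), its filter by sgRNA (minimum count 10) and quasi-likelihood F tests, with 1 coefficient per sgRNA over 24 libraries. An element is the mean of its sgRNAs, set against the mean of the 4 NC sgRNAs. Benjamini-Hochberg values cover all 13147 genes tested, and a gene is called under 0.05. SEs come from the F statistic. The p-values measure the spread between replicates of an sgRNA, which the study calls biological.

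Alternatives were RLE and upper quartile scaling, DESeq2 1.42.0, no filter, a filter at a mean of 5 CPM, a replicate block, 1 coefficient per element, counts summed per sgRNA, the 2 subsets of NC libraries, only the compared groups, and leaving out each library or sgRNA. Replicate numbers did not pair the libraries. The code was tested on simulated data. Intervals and limits at 0 cover counting error only.

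The members and lists were chosen with earlier results of these data known. From each further list, up to 4 called genes averaging 5 CPM or more, those with the largest changes, are named, besides NFE2, FLI1, RUNX1, GFI1B, TAL1, VWF, SELP, PPBP and TUBB1. A further gene of that rule is not reported here. CD68, ITGAX, SPI1, TYROBP, CD33, LYZ, ITGAM, FCGR3A and CD14 were named after their values were seen. Exons of the 9 genes overlap no other gene.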

Additional observations from a re-analysis of the deposited data

Results flagged for a closer look

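ITGB3 in eHDAC6-Guide2 replicate 2 stood at 4.65 CPM, apart from the other 5 eHDAC6 libraries at 5.75 to 6.37 CPM. It was the 1 library set apart in 14 groups of 6 libraries examined, where chance sets about 1 in 20 apart. Without it the fall of ITGB3 with eHDAC6-Guide2 was -0.35 and not called.

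GP6 differed between the elements, lower with eHDAC6 than with GATA1TSS sgRNAs (log2 difference -0.55, edgeR adjusted p = 9.81e-04). PLEK differed between the sgRNAs of 1 element, higher with GATA1TSS-Guide2 than with GATA1TSS-Guide1 (log2 difference 2.87, edgeR adjusted p = 8.61e-05). GATA1 itself was lower with GATA1TSS-Guide2 than with GATA1TSS-Guide1 (log2 difference -1.10), and the part of that difference in the level of PLEK was not tested.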

How the results depend on the processing

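Of the 7 tested genes, GP6 kept its call with GATA1TSS sgRNAs in all fits run. The number of genes called with GATA1TSS sgRNAs (4) was 2 under the filter at a mean of 5 CPM, which removes PLEK, GP1BA, THBS1 and CD9, 2 with counts summed per sgRNA, 2 against the 4 NC libraries and 1 without GATA1TSS-Guide2. Over all genes, 3243 of 9974, 632 of 14452, 1343 of 13126 and 1625 of 13047 were called in these fits, in this order. The main fit called 3580 of 13147. With eHDAC6 sgRNAs the number of platelet genes called (3) was 0 with summed counts, 1 against the 4 NC libraries and 1 without eHDAC6-Guide2. Over all genes, 280 of 14452, 195 of 13126 and 1993 of 13124 were called there, beside 4088 of 13147 in the main fit. Between eHDAC6 and GATA1TSS the number of platelet genes called (1) was 0 with 1 coefficient per element, with summed counts, without GATA1TSS-Guide2 and without eHDAC6-Guide2, and 2 without GATA1TSS-Guide1. Over all genes, 15 of 12749, 0 of 14452, 4 of 13047, 45 of 13124 and 915 of 13109 were called there, beside 201 of 13147. Between the GATA1TSS sgRNAs the number of platelet genes called was 0 under the filter at 5 CPM, where 434 of 9974 genes were called. For GATA1TSS-Guide1 it was 2 without NC-Guide3. For eHDAC6-Guide1 (1) it was 2 with DESeq2, with no filter and without GATA1TSS-Guide1, 0 against the 4 NC libraries, and 1 to 2 without single libraries. For eHDAC6-Guide2 (3) it was 1 against the 4 NC libraries and 1 to 3 without single libraries. Among NC sgRNAs (2) it was 1 to 2 without single libraries and 0 without NC-Guide1. The further lists, which hold GATA1 itself, had 25 calls with GATA1TSS sgRNAs with summed counts, 30 against the 4 NC libraries and 28 without GATA1TSS-Guide2, beside 67. With eHDAC6 sgRNAs they had 4, 6 and, without eHDAC6-Guide1, 43, beside 65. These counts are to be read beside the calls over all genes above, and without eHDAC6-Guide1 those were 2219 of 13115. Apart from fewer genes or libraries, the cause was not tested.

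Directions that turned were those of changes with no call. They were GP1BA with GATA1TSS sgRNAs (0.029 against the 4 NC libraries), ITGA2B with GATA1TSS sgRNAs (0.0039 against the 4, 0.021 against the 8 and 0.049 without NC-Guide1), and THBS1 with eHDAC6 sgRNAs (-0.14 against the 8, -0.14 without eHDAC6-Guide2 and -0.042 without NC-Guide3). Between eHDAC6 and GATA1TSS they were PLEK (0.56 without GATA1TSS-Guide2), ITGB3 (-3.64e-05 with no filter, -0.047 without GATA1TSS-Guide2, -0.082 without eHDAC6-Guide1 and -0.024 to 0.059 without single libraries) and CD9 (-0.081 without eHDAC6-Guide2 and -0.030 to 0.20 without single libraries). CD9 with eHDAC6-Guide2 ran from -0.30 to 0.041 without single libraries. Libraries of different sgRNAs with the same replicate number had correlations of their deviations between -0.569 and 0.606, with 29 of 84 above 0.1, and 9 of 24 libraries correlated best with their own number. With the replicate block the number of genes called was 4 with GATA1TSS and 3 with eHDAC6 sgRNAs, as without it.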
